A study of Gallus gallus with 6 samples.

Results

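The genes described here encode WNT ligands, their receptors and the proteins that modulate or relay their signal. They were taken from the deposited tables by gene name: names that start with WNT, FZD, SFRP, DKK, RSPO, LGR, AXIN, DVL, TCF7 or LEF1, and 16 further names such as FRZB, LRP6, CTNNB1 and APC. The rule found 56 of the 24881 Ensembl genes listed in every table. Expression was measured by RNA sequencing in primary cultures of skeletal muscle cells of the chicken embryo, all at passage 1. Myotubes, which arise by fusion of myoblasts and hold many nuclei, were sampled after culture in RPMI-1640 with 2% horse serum (3 libraries). Myoblasts, their proliferating mononucleated precursors, were sampled in RPMI-1640 with 15% fetal bovine serum (3 libraries), and both media held 2% penicillin and streptomycin. The labels give no strain, embryonic age or time in differentiation medium, and nothing in them states if replicate libraries stem from different cultures or embryos. The p-values therefore measure only the spread between these libraries, which may be technical.

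WNT proteins are secreted, lipid-modified ligands that bind Frizzled receptors. With the co-receptors LRP5 and LRP6 they stop the destruction complex of AXIN, APC and GSK3B from degrading beta-catenin, which then enters the nucleus and acts with TCF and LEF factors on target genes. With ROR and RYK receptors they instead steer cell polarity and movement. Secreted Frizzled-related proteins and some Dickkopf proteins can restrain the signal, though not every member does so in every setting. R-spondins, through LGR receptors, strengthen the signal by keeping the ligases ZNRF3 and RNF43 away from Frizzled. In the embryo, WNT signals from neighbouring tissues induce myogenic factors in the somite, and in muscle they influence the balance between dividing precursors and differentiating cells.

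The libraries held between 21893152 and 23519295 counted reads in myotubes and between 16052542 and 20981337 in myoblasts. The labelled cell types were checked against marker lists. All 13 skeletal muscle markers found in the tables were detected, and their summed level was 2656 to 2796 CPM (scaled counts relative to library size) in myotubes and 2209 to 2394 CPM in myoblasts. Of these markers 8 rose, among them the sarcomere gene MYOM2 (log2 fold change 4.06), and 4 fell, among them the early myogenic factor MYF5 (log2 fold change -3.52). Over all tested genes, 36.7% rose and 35.7% fell by the test described below. Markers of other cells also differed between the groups. The 14 of 17 fibroblast markers that were found summed to 11775 to 13583 CPM in myotubes and 6763 to 6928 CPM in myoblasts, and 10 of the 13 tested rose while 2 fell. The 12 of 15 macrophage and blood cell markers that were found summed to 429.9 to 470.0 CPM in myotubes and 1365 to 1444 CPM in myoblasts, and 11 fell. The 9 of 10 neural crest and pigment cell markers that were found summed to 16.4 to 19.6 CPM in myotubes and 138 to 153 CPM in myoblasts, while 1 of the 3 tested rose and 2 fell, and the pigment enzyme DCT had no read in any myotube library. Fat cell markers (5 of 6 found) summed to 193 to 234 CPM in myotubes and 476 to 499 CPM in myoblasts, and 1 of the 4 tested rose and 3 fell. Endothelial markers (8 of 9 found) and cartilage markers (6 of 7 found) summed to less than 100 CPM in every library, and no marker found in any list was at 0 in all 6 libraries. The part of these cells in the changes described below was not tested. In RNA from whole cultures, fewer cells of a type and less RNA per cell cannot be told apart.

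Of the 56 genes, 38 passed a filter on low values, a mean of at least 1 FPKM (the authors' measure of level, corrected for gene length and depth) over the 6 libraries. Of 33 of the genes with at least 50 counts in every library, the FPKM matched the listed gene length within 1% for 21, so levels set side by side between genes depend on lengths that the tables do not give for the rest. All 33 implied the same length in both groups. WNT4 and LGR5 passed through their myoblast level alone. Differences were tested with edgeR (quasi-likelihood F-test over 12808 genes) and called where the adjusted p was below 0.05. Of the 38 genes 29 were called, or 76.3% against 72.5% of all tested genes. Of these, 15 were called higher in myotubes, against 36.7% of all tested genes, and 14 were called lower, against 35.7%. The remaining 9 were not called. The share of genes called was thus near that of all genes in both directions. The median log2 fold change, myotube over myoblast, was -0.08 over the 38 genes and 0.01 over all tested genes. With each library put on the TPM scale, where values sum to a fixed total, the median of all genes moved to 0.19. On that scale 17 of the 38 genes were called higher and 9 lower, against 5840 and 3497 of all 12808 tested genes. The changes spanned a log2 range of -3.87 for LGR5 to 4.44 for SFRP2, and 5 genes were called at least 2-fold higher (14.1% of all genes) and 7 at least 2-fold lower (11.1%).

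**Figure D1:**
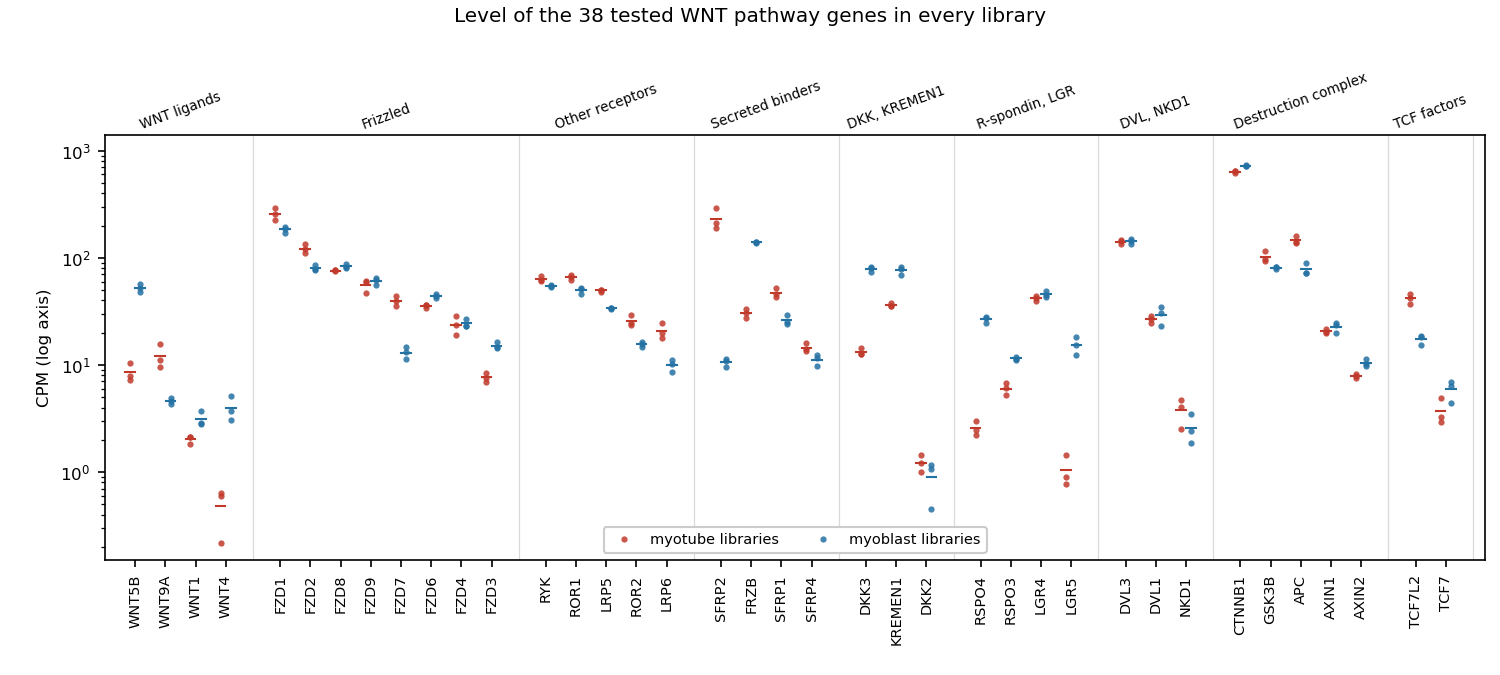
Level of each of the 38 tested genes in CPM (log axis) in every library, grouped by role, with 3 myotube libraries (red, left) and 3 myoblast libraries (blue, right) per gene and the mean of each as a short line. The groups stand far apart for SFRP2, FRZB, DKK3, RSPO4, LGR5, WNT5B and WNT4, while DVL3 and LGR4 overlap.

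Most ligands were low, but the FPKM of WNT5B in myoblasts was above that of 79.6% of all tested genes. The make-up of the ligands changed. Of 16 WNT genes, 4 passed the filter, and 1 of these rose and 3 fell, against 36.7% and 35.7% of all tested genes. WNT5B, a ligand mostly assigned to the branches that do not use beta-catenin, had 7.86, 10.5 and 7.20 CPM in the myotube libraries, against 47.4, 52.2 and 56.7 CPM in the myoblast libraries. All myotube values lay below all myoblast values, and WNT5B fell 6.12-fold (log2 fold change -2.61 ± 0.13 SE, edgeR adjusted p = 7.2e-08). The tables list WNT5B on chromosome 1 from 60973501 to 60989342, in a genome build that they do not name. WNT9A, known from the chick for its part in forming joints, had 11.0, 9.47 and 15.7 CPM in myotubes and 4.56, 4.86 and 4.27 CPM in myoblasts. It rose 2.65-fold, with no overlap of the groups, and its highest value stood in myotube replicate 3 (log2 fold change 1.40 ± 0.19 SE, adjusted p = 9.5e-05).

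WNT4, a ligand best known from kidney and ovary development in the mouse, was near the limit of detection in myotubes. It had 0.601, 0.216 and 0.634 CPM in myotubes, from 33 counts over the group, and 3.08, 3.74 and 5.18 CPM in myoblasts, from 211 counts. It fell 8.26-fold (log2 fold change -3.05 ± 0.36 SE, adjusted p = 2.9e-05). WNT4 passed the filter through its myoblast level alone, at 0.337 FPKM in myotubes and 2.67 FPKM in myoblasts. WNT1, the founding vertebrate member of the family and a signal of the dorsal neural tube, had 2.10, 1.82 and 2.13 CPM in myotubes and 2.83, 2.87 and 3.72 CPM in myoblasts. Its fall of 1.56-fold passed the test (adjusted p = 0.018) but not without myotube replicate 2 (adjusted p = 0.0653) or myoblast replicate 3 (adjusted p = 0.0748). The call was also lost on the TPM scale (adjusted p = 0.0624). WNT1 is listed on an unplaced scaffold, KQ759553.1.

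The other 12 ligand genes lay under the filter, with 0 to 97 counts over all 6 libraries. WNT16, a ligand studied mostly in bone, had the most, with 7 counts over the myotube libraries and 90 over the myoblast libraries. It was called lower in both fits that used a looser filter. With no filter beyond 1 read its log2 fold change was -3.99 (edgeR adjusted p = 5.8e-06), against -3.87 for LGR5 in the same fit. WNT11 had 13 counts in myotubes and 1 in myoblasts, and 10 of the 13 myotube counts stood in replicate 3. It was not called (adjusted p = 0.092 with no filter beyond 1 read). No read of WNT3 was counted in any library, and WNT2, WNT3A and WNT9B had none in myoblasts and 1 to 3 in myotubes. WNT5A and WNT2B were not analysed here. WNT7A, a ligand known to act on muscle stem cells in the mouse, had 2 counts in each group.

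Summed over the 16 genes, WNT ligands stood at 21.1 ± 1.91 FPKM in myotubes and 56.3 ± 4.98 FPKM in myoblasts (SD, n = 3 each). WNT5B made up 37.0% ± 9.45 of that sum in myotubes and 80.2% ± 1.15 in myoblasts. WNT9A made up 48.4% ± 9.01 in myotubes and 6.66% ± 0.929 in myoblasts. WNT9A was the larger share in myotube replicates 1 and 3 and WNT5B in myotube replicate 2, so no single ligand led in all myotube libraries, whereas WNT5B led in every myoblast library.

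**Figure D2:**
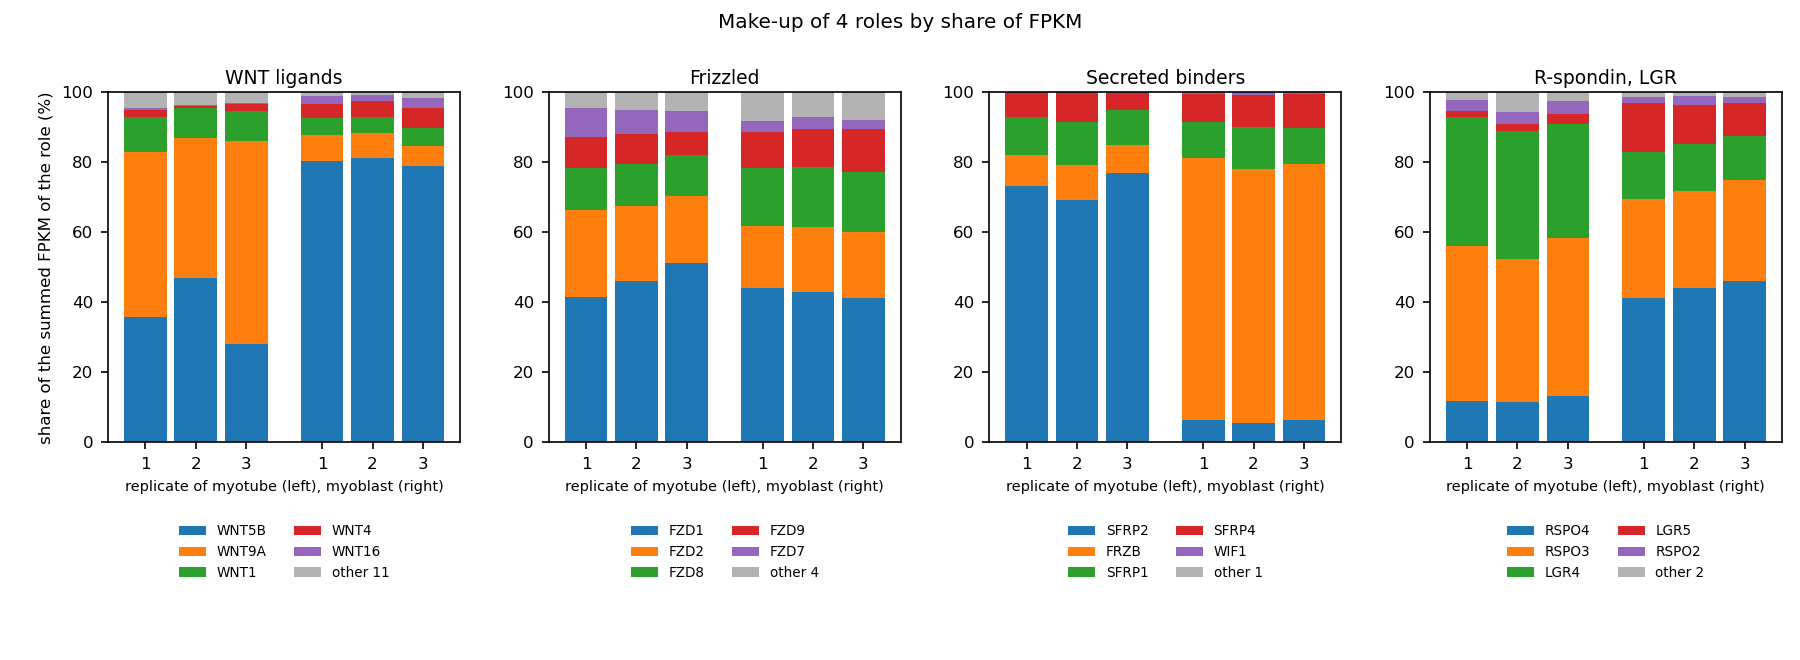
Share of each gene in the summed FPKM of its role (percent, bars stacked to 100) in every library, for WNT ligands, Frizzled receptors, secreted WNT binders and the R-spondin and LGR genes, with the 3 myotube libraries left of the 3 myoblast libraries in each panel. SFRP2 fills 69.2 to 76.9% of the secreted binders in myotubes and FRZB 72.7 to 74.9% in myoblasts, while FZD1 holds the largest share of the Frizzled receptors in every library.

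Frizzled genes encode the 7-pass membrane receptors of WNT ligands, and all but FZD5 passed the filter. Of the 8 tested, 3 rose and 2 fell, against 36.7% and 35.7% of all tested genes, and 3 were not called. FZD1 was the most abundant, at 223, 254 and 291 CPM in myotubes and 188, 192 and 172 CPM in myoblasts. It rose 1.39-fold without overlap of the groups (adjusted p = 0.00086). FZD7, the receptor through which WNT7A acts on muscle stem cells in the mouse, changed the most, with 44.1, 39.2 and 35.4 CPM in myotubes and 13.2, 14.6 and 11.3 CPM in myoblasts. It rose 3.04-fold (log2 fold change 1.61 ± 0.12 SE, adjusted p = 9.2e-07).

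FZD2, a receptor close in sequence to FZD1 and FZD7, had 135, 119.9 and 110.4 CPM in myotubes and 76.1, 85.1 and 79.4 CPM in myoblasts, a rise of 1.52-fold (adjusted p = 6.9e-05). FZD3, known for its part in axon guidance and planar polarity in the mouse, had 7.60, 8.47 and 6.93 CPM in myotubes and 14.3, 14.7 and 16.2 CPM in myoblasts. It fell 1.96-fold (adjusted p = 3.3e-05). FZD6 fell 1.24-fold to 35.6 ± 1.41 CPM, against 44.2 ± 1.82 CPM in myoblasts (adjusted p = 0.0024), a call that was lost on the TPM scale. FZD4, FZD8 and FZD9 were not called, at log2 fold changes of -0.04, -0.13 and -0.14. FZD8 had 76.0 ± 0.867 CPM in myotubes and 83.2 ± 3.94 CPM in myoblasts, with no overlap of the groups but an adjusted p of 0.076, and it was called lower with the filter of filterByExpr and without myoblast replicate 1. FZD5 had 43 counts in myotubes and 17 in myoblasts.

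Per gene length, the order of the Frizzled receptors was much the same in both groups. In FPKM it ran FZD1, FZD2, FZD8, FZD9 and FZD7 in myotubes, and FZD1, FZD2, FZD8, FZD9 and FZD6 in myoblasts. FZD1 stood at 155 ± 21.9 FPKM in myotubes and 106 ± 7.08 FPKM in myoblasts, and made up 46.2% ± 4.88 of the Frizzled sum in myotubes and 42.8% ± 1.47 in myoblasts. FZD2 and FZD8 were far apart in myotubes, at 72.7 ± 6.74 and 40.1 ± 0.913 FPKM. In myoblasts they stood closer, at 45.8 ± 2.56 and 42.0 ± 2.01 FPKM, with FZD2 above FZD8 in every myoblast library. The share of FZD7 was 7.03% ± 0.964 in myotubes and 2.97% ± 0.290 in myoblasts. The sum over 9 Frizzled genes was 334 ± 12.3 FPKM in myotubes and 249 ± 10.5 FPKM in myoblasts.

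The co-receptors LRP5 and LRP6 and the receptors ROR1, ROR2 and RYK were all called higher in myotubes, against 36.7% of all tested genes. LRP6, the co-receptor needed for most beta-catenin signalling, had 18.0, 19.7 and 24.6 CPM in myotubes and 11.1, 8.60 and 10.1 CPM in myoblasts, a rise of 2.09-fold (log2 fold change 1.06 ± 0.14 SE, adjusted p = 7.8e-05). LRP5, its paralog, had 48.2, 50.4 and 50.5 CPM in myotubes and 33.8, 34.0 and 33.3 CPM in myoblasts, a rise of 1.47-fold (adjusted p = 2.6e-05). No myotube value of either gene reached down to the myoblast values.

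ROR2, a receptor tyrosine kinase of the branch used by WNT5 ligands, had 24.7, 23.7 and 29.0 CPM in myotubes and 16.5, 15.7 and 14.7 CPM in myoblasts. It rose 1.65-fold (adjusted p = 0.00013). ROR1 rose 1.33-fold to 66.0 ± 3.16 CPM, against 49.7 ± 2.90 CPM in myoblasts (adjusted p = 0.00061). RYK, a receptor without an active kinase, was the most abundant of the 5 per gene length, and had 67.1, 61.5 and 60.2 CPM in myotubes and 52.8, 54.5 and 55.3 CPM in myoblasts. Its rise of 1.16-fold (adjusted p = 0.019) was not called without myotube replicate 1 (adjusted p = 0.0588) or without myoblast replicate 2 (adjusted p = 0.0557). Per gene length the order of the group means was RYK, ROR1, LRP5, ROR2 and LRP6 in both groups. In myotube replicate 3, however, ROR2 (10.5 FPKM) stood above LRP5 (9.88 FPKM).

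**Figure D3:**
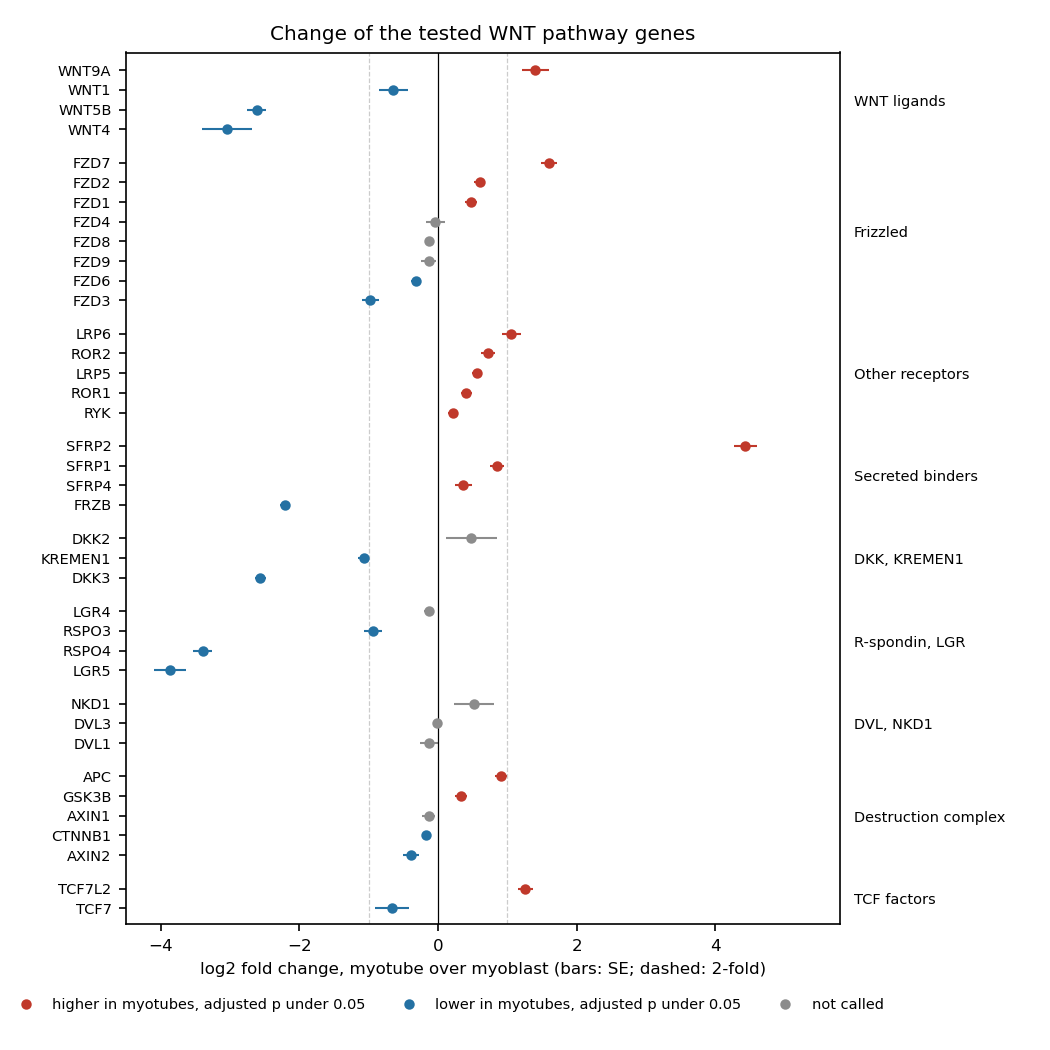
Log2 fold change, myotube over myoblast, of the 38 tested genes by role (points; bars are the standard error; red, higher and blue, lower in myotubes where the adjusted p was below 0.05; grey, not called; dashed lines, 2-fold). SFRP2 stands at 4.44 and LGR5 at -3.87. All 5 genes of the other receptors were called higher, against 36.7% of all tested genes. Of the 4 R-spondin and LGR genes, 3 were called lower, against 35.7% of all tested genes, and LGR4 was not called.

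Of the 4 tested secreted proteins that bind WNT ligands, 3 rose and 1 fell, against 36.7% and 35.7% of all tested genes. SFRP2, a secreted Frizzled-related protein made by many mesenchymal cells, had 209, 188 and 289 CPM in myotubes and 10.9, 9.47 and 11.3 CPM in myoblasts. It rose 21.6-fold, the largest change among the 38 genes (log2 fold change 4.44 ± 0.17 SE, adjusted p = 9.7e-09). SFRP2 is listed on chromosome 4 from 20227180 to 20230889. FRZB, a relative first described in cartilage, had 27.6, 30.3 and 33.2 CPM in myotubes and 138.7, 140.2 and 140.4 CPM in myoblasts, and fell 4.60-fold (log2 fold change -2.20 ± 0.07 SE, adjusted p = 5.2e-09). Neither gene's groups came near each other, and the myotube value of SFRP2 was highest in replicate 3. The fibroblast markers were also highest in that replicate, at 13583 CPM in sum against 12708 and 11775 CPM in replicates 1 and 2, and their part in the rise of SFRP2 was not tested.

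SFRP1, another member of the family, had 42.8, 46.0 and 51.9 CPM in myotubes and 24.0, 29.3 and 24.98 CPM in myoblasts. It rose 1.80-fold (adjusted p = 3.1e-05). SFRP4 rose 1.29-fold to 14.5 ± 1.22 CPM, against 11.2 ± 1.35 CPM in myoblasts (adjusted p = 0.02). This call was lost without myotube replicate 2, without myoblast replicate 1 and by quantile normalization. WIF1, a secreted inhibitor that binds WNT proteins directly, had 41 counts in myotubes and 54 in myoblasts. No read of SFRP5 was counted in any library. SFRP5 is listed inside ZFYVE27, which runs the other way, and the strand setting of the counting is unknown here.

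Per gene length, SFRP2 was the highest of the tested binders in myotubes and FRZB in myoblasts. SFRP2 stood at 131 ± 31.2 FPKM in myotubes and 5.75 ± 0.493 FPKM in myoblasts. FRZB stood at 15.8 ± 1.60 FPKM in myotubes and at 69.7 ± 0.449 FPKM in myoblasts. SFRP2 made up 73.1% ± 3.88 of the sum of the role in myotubes and 6.08% ± 0.600 in myoblasts. FRZB made up 9.03% ± 1.08 in myotubes and 73.6% ± 1.17 in myoblasts. The FPKM of FRZB, SFRP1 and SFRP4 rest on lengths other than the listed ones. With the listed lengths, SFRP2 made up 78.5% ± 3.29 in myotubes and 6.77% ± 0.638 in myoblasts. FRZB then made up 9.31% ± 1.21 in myotubes and 78.7% ± 0.816 in myoblasts. Among all tested genes, the FPKM of SFRP2 was above that of 94.1% of genes in myotubes and 30.2% in myoblasts.

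Of the Dickkopf genes, DKK2 and DKK3 are among the 56 genes, and DKK1 was not analysed here. Of these genes and KREMEN1, 3 in all, 2 fell, against 35.7% of all tested genes, and 1 was not called. DKK3, a divergent member of the Dickkopf family of secreted WNT modulators, had 12.8, 12.8 and 14.3 CPM in myotubes and 73.8, 81.4 and 80.0 CPM in myoblasts. It fell 5.91-fold (log2 fold change -2.56 ± 0.08 SE, adjusted p = 3.7e-09). KREMEN1, a membrane receptor for Dickkopf proteins, had 35.8, 35.2 and 37.7 CPM in myotubes and 81.5, 77.9 and 69.0 CPM in myoblasts, a fall of 2.10-fold (adjusted p = 1.1e-06). All myotube values of both genes lay below all myoblast values. DKK2 was low, at 1.21 ± 0.215 CPM in myotubes and 0.889 ± 0.382 CPM in myoblasts, and was not called.

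Of the 4 tested R-spondin and LGR genes, RSPO3, RSPO4 and the receptor LGR5 fell, against 35.7% of all tested genes, and LGR4 was not called. RSPO4, a secreted R-spondin, had 2.45, 2.20 and 2.99 CPM in myotubes and 24.7, 28.2 and 27.5 CPM in myoblasts. It fell 10.5-fold (log2 fold change -3.40 ± 0.13 SE, adjusted p = 1.2e-08). LGR5, an R-spondin receptor known as a marker of intestinal stem cells in the mouse, had 0.773, 0.908 and 1.45 CPM in myotubes and 18.1, 15.4 and 12.3 CPM in myoblasts. It fell 14.6-fold, the largest fall among the 38 genes, with 71 counts over the myotube libraries and 774 over the myoblast libraries (log2 fold change -3.87 ± 0.24 SE, adjusted p = 2.4e-07). LGR5 passed the filter through its myoblast level alone, at 0.384 FPKM in myotubes and 5.38 FPKM in myoblasts. Its place among the 38 genes thus depended on the group where it was high.

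RSPO3, the R-spondin known for its part in blood vessel development in the mouse, had 6.10, 5.19 and 6.75 CPM in myotubes and 11.2, 11.8 and 11.5 CPM in myoblasts. It fell 1.91-fold with no overlap of the groups (adjusted p = 9.3e-05). LGR4, the more widely expressed R-spondin receptor, was not called, at 41.8 ± 1.96 CPM in myotubes and 45.7 ± 3.20 CPM in myoblasts, values that overlapped. RSPO1, RSPO2 and the ligase RNF43 were under the filter, with 30 to 115 counts over the 6 libraries. RSPO2 had 47 counts in myotubes and 61 in myoblasts and was called lower with the filter of edgeR's filterByExpr (adjusted p = 0.0454) but not with no filter beyond 1 read (adjusted p = 0.0852).

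Per gene length, R-spondin and LGR genes with RNF43 summed to 16.7 ± 1.39 FPKM in myotubes and 47.0 ± 2.05 FPKM in myoblasts. RSPO4 made up 12.2% ± 0.927 of this sum in myotubes and 43.8% ± 2.37 in myoblasts. LGR4 stood beside LGR5 in myoblasts, at 6.18 ± 0.472 and 5.38 ± 1.08 FPKM, which overlap in their spread, and apart from it in myotubes, at 5.90 ± 0.217 and 0.384 ± 0.134 FPKM.

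Dishevelled proteins carry the signal from Frizzled to the destruction complex, and neither DVL gene was called. DVL3 had 148, 143 and 134 CPM in myotubes and 134, 149.6 and 143 CPM in myoblasts, values that overlapped throughout (log2 fold change -0.01 ± 0.06 SE, adjusted p = 0.92). This gene was called higher on the TPM scale (log2 fold change 0.17, adjusted p = 0.0209). DVL1 had 26.9 ± 2.08 CPM in myotubes and 29.4 ± 5.86 CPM in myoblasts, and was called lower without myoblast replicate 3. NKD1, a Dishevelled antagonist that is itself induced by WNT signalling in many cells, had 3.75 ± 1.10 CPM in myotubes and 2.59 ± 0.813 CPM in myoblasts and was not called (adjusted p = 0.13). It was called higher without myotube replicate 1, without myoblast replicate 3 and on the TPM scale.

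CTNNB1, which encodes beta-catenin, the protein that carries the signal to the nucleus and also anchors cadherins, was the most abundant of the 56 genes per gene length. It had 621, 645 and 649.5 CPM in myotubes and 718, 732 and 712 CPM in myoblasts. The groups did not overlap, but the difference was 1.13-fold (log2 fold change -0.18 ± 0.05 SE, adjusted p = 0.011). The direction depended on scaling, since on the TPM scale the log2 fold change was 0.01 (adjusted p = 0.935). The call was also lost by quantile normalization (adjusted p = 0.452), with library totals (adjusted p = 0.0679), in limma on log2(FPKM + 1) (adjusted p = 0.0646) or log2(FPKM + 0.1) (adjusted p = 0.0638), and without myoblast replicate 2 (adjusted p = 0.0505).

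APC, the scaffold of the destruction complex, had 138, 139 and 161 CPM in myotubes and 89.2, 72.4 and 71.6 CPM in myoblasts. It rose 1.88-fold without overlap (log2 fold change 0.91 ± 0.09 SE, adjusted p = 1.1e-05). GSK3B, the kinase that marks beta-catenin for degradation, rose 1.26-fold to 102 ± 11.4 CPM, against 80.9 ± 2.53 CPM in myoblasts (adjusted p = 0.0038). AXIN1 was not called, at 20.7 ± 0.794 CPM in myotubes and 22.7 ± 2.37 CPM in myoblasts. AXIN2, a feedback inhibitor that beta-catenin signalling induces in most cells studied, had 7.56, 7.91 and 8.29 CPM in myotubes and 11.3, 10.2 and 9.75 CPM in myoblasts. It fell 1.31-fold (adjusted p = 0.011), without overlap of the groups. On the TPM scale AXIN2 was not called (log2 fold change -0.21, adjusted p = 0.146), and neither was it by limma on log2(FPKM + 1) (adjusted p = 0.0561) or log2(FPKM + 0.1) (adjusted p = 0.0602).

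Of the TCF and LEF transcription factors, TCF7 and TCF7L2 are named in the tables, and LEF1 and TCF7L1 were not analysed here. TCF7L2, which in the chick limb marks the connective tissue fibroblasts of muscle, had 46.3, 36.9 and 42.5 CPM in myotubes and 18.4, 15.2 and 18.7 CPM in myoblasts. It rose 2.40-fold (log2 fold change 1.26 ± 0.11 SE, adjusted p = 3.3e-06), and the myotube values all lay above the myoblast values. The fibroblast markers summed to 11775 to 13583 CPM in the same myotube libraries and 6763 to 6928 CPM in the myoblast libraries, and their part in this rise was not tested. TCF7, the relative known from T cells, had 4.94, 2.94 and 3.26 CPM in myotubes and 6.94, 6.42 and 4.42 CPM in myoblasts. The groups overlapped, and its fall of 1.58-fold (adjusted p = 0.03) was lost without myotube replicate 2 or 3 and without myoblast replicate 1 or 2, at adjusted p of 0.0874 to 0.113. TCF7 was not called on the TPM scale either (adjusted p = 0.0989). Per gene length TCF7L2 made up 86.04% ± 2.24 of the sum of both in myotubes and 61.5% ± 7.13 in myoblasts. With the listed gene lengths these shares were 77.8% ± 3.19 in myotubes and 47.7% ± 7.67 in myoblasts.

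The libraries within a group were not alike for these genes. Myotube replicate 3 held the highest of the 3 myotube values in 25 of the 38 genes, or 65.8%, against 37.3% of all tested genes. Replicate 2 held it in 4 and replicate 1 in 9. In myoblasts the highest values were spread over replicates 1, 2 and 3 in 13, 13 and 12 genes. The median coefficient of variation was 10.2% in myotubes and 7.55% in myoblasts for the 38 genes, and 7.76% and 7.54% for all tested genes. Of the 29 calls, 28 kept their direction and threshold without myotube replicate 3, and the exception was TCF7. The groups did not overlap for 29 of the 38 genes, or 76.3%, against 76.1% of all tested genes, with the myotubes above in 15 (38.6% of all genes) and below in 14 (37.5%).

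Other genes of the pathway were taken from lists of names drawn up from general knowledge, with earlier results of these data known. These genes were more often called higher than lower in myotubes. Of 99 tested genes in 3 lists, 53 rose and 26 fell, against 36.7% and 35.7% of all tested genes, and their median log2 fold change was 0.35 against 0.01 over all genes. On the TPM scale 67 rose and 19 fell, while over all 12808 tested genes 5840 rose and 3497 fell on that scale. In the list of secretion factors, co-receptors and extracellular modulators, 10 rose and 9 fell of 21, with a median of 0.24. CPZ, a carboxypeptidase with a Frizzled-like domain, rose 5.41-fold to 33.6 ± 2.44 CPM, against 6.25 ± 0.919 CPM in myoblasts (adjusted p = 6.3e-08). SULF2, a sulfatase that trims heparan sulfate chains, rose 2.69-fold, and SERPINF1, a secreted serpin also called PEDF, rose 2.53-fold. IGFBP4, an IGF-binding protein that can also block LRP6, fell 5.48-fold to 242 ± 39.7 CPM, against 1324 ± 102 CPM in myoblasts (adjusted p = 4.1e-08). NDP, the non-WNT ligand of FZD4, fell 2.77-fold. It passed the filter through its myoblast level alone, at 0.740 FPKM in myotubes and 1.97 FPKM in myoblasts. ATP6AP2, a proton pump subunit that links LRP6 to the pump, fell 2.59-fold. WLS, the carrier that brings WNT ligands to the cell surface, fell with a log2 fold change of -0.35, and was picked for mention after its value was seen.

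In the list of cytoplasmic and nuclear components, 23 rose and 9 fell of 42, against 36.7% and 35.7% of all tested genes. The list median was 0.33. DACT2 and DACT1, which bind Dishevelled, had the largest and the second largest rise. DACT1 had 259.8, 287 and 315 CPM in myotubes and 79.3, 82.7 and 79.7 CPM in myoblasts, a rise of 3.57-fold (adjusted p = 1.4e-08). DACT2, which was near the limit of detection in myoblasts, rose 8.89-fold to 6.62 ± 1.65 CPM, against 0.748 ± 0.308 CPM in myoblasts (adjusted p = 5.8e-06). DACT2 passed the filter mainly through its myotube level. The co-activator EP300 rose 3.39-fold to 141 ± 3.68 CPM, against 41.5 ± 1.39 CPM in myoblasts. JUP, or plakoglobin, the close relative of beta-catenin at cell junctions, fell 1.86-fold to 289.6 ± 27.3 CPM, against 539 ± 8.88 CPM in myoblasts (adjusted p = 1.7e-06). RUVBL1, an ATPase that binds beta-catenin, fell 1.54-fold, and the co-repressor gene CTBP1 fell 1.41-fold.

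In the list of the planar polarity and calcium branches, 20 rose and 8 fell of 36, against 36.7% and 35.7% of all tested genes. The list median was 0.36. FAT4, a giant cadherin of planar polarity, had 56.7, 63.5 and 76.0 CPM in myotubes and 11.1, 7.42 and 7.29 CPM in myoblasts, a rise of 7.64-fold (adjusted p = 1.3e-07). NFAT5, a transcription factor best known for the response to osmotic stress, rose 3.08-fold, and the core polarity gene PRICKLE2 rose 2.77-fold. The protein kinase C genes PRKCB and PRKCD fell 2.24-fold and 1.64-fold, and the formin gene FHOD1 fell 1.89-fold.

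**Figure D4:**
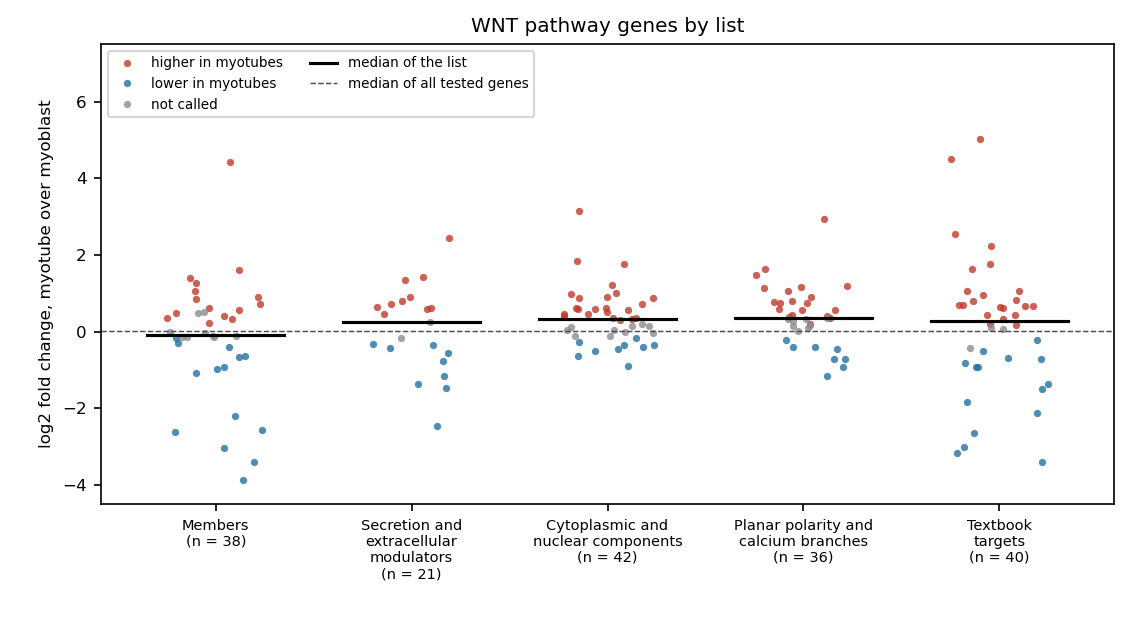
Log2 fold change, myotube over myoblast, of the 38 tested genes (members) and of the tested genes in 4 lists of other pathway genes (points; red, higher and blue, lower in myotubes; grey, not called), with the median of each list (black line) and of all tested genes (dashed). The list medians are -0.08, 0.24, 0.33, 0.36 and 0.27 from left to right.

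Genes named in textbooks as targets of beta-catenin moved in both directions, with 22 higher and 15 lower of 40 tested, against 36.7% and 35.7% of all tested genes, and a median log2 fold change of 0.27. PTGS2, which encodes cyclooxygenase-2, had 689, 538 and 542 CPM in myotubes and 17.3, 19.6 and 17.7 CPM in myoblasts, a rise of 32.4-fold (log2 fold change 5.02, adjusted p = 7.4e-10). The adhesion gene NRCAM rose 22.6-fold to 19.7 ± 2.96 CPM, against 0.845 ± 0.315 CPM in myoblasts, where it was near the limit of detection. NRCAM passed the filter mainly through its myotube level. The matrix protease gene MMP2 rose 5.84-fold. GREM1, a BMP antagonist, fell 10.6-fold to 0.334 ± 0.160 CPM, near the limit of detection, against 3.63 ± 0.985 CPM in myoblasts. GREM1 passed the filter mainly through its myoblast level. BIRC5, which encodes survivin, a protein of dividing cells, fell 8.98-fold, and endothelin-1 (EDN1) fell 8.09-fold. Most genes on this list also respond to other signals, and SP5, often used as a reporter of beta-catenin signalling, lay under the filter.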

How the data were processed

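Libraries were aligned with HISAT and counted with HTSeq, per the submitters' processing notes; for versions, genome build and strand setting nothing is given in the sources used here. The deposited tables hold raw read counts per gene and FPKM values, both made by the authors. Rows without an Ensembl gene ID (1.66 to 1.73% of counts in myotubes, 2.00 to 2.12% in myoblasts) were left out. Counts were scaled by TMM and tested with edgeR 4.0.16 (quasi-likelihood F-test, R 4.3.3) over genes with a mean of at least 1 FPKM, with Benjamini-Hochberg adjustment over all 12808 genes and calls at an adjusted p under 0.05. The standard error of a log2 fold change was its size divided by the square root of F. Scripts were tested on simulated data in which few genes changed. Most genes were called here, so that test cannot show how well the scaling holds in these data. FPKM was used to compare levels between genes. Values in every library are given for members called at 1.5-fold or more, the most abundant member of each role, and AXIN2, CTNNB1, LRP5, LRP6 and the TCF genes. Genes named from the other pathway lists are the 3 with the largest called rise and the 3 with the largest called fall per list. WLS and SP5 were named outside this rule. The members and lists were chosen with earlier results of these data known. No 2 libraries of a group held the same values. Total depth was 16052542 to 23519295 counts. DESeq2 1.42.0, limma 3.58.1, other scalings and filters and leaving out each library were tried as alternatives.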

Additional observations from a re-analysis of the deposited data

How the results depend on the processing

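With edgeR's quasi-likelihood test, 20 of 26 genes named with per-library values kept their direction and call under all 19 alternatives that could test them, and the exceptions were WNT1, RYK, DVL3, CTNNB1, AXIN2 and TCF7. The number of the 38 genes called lower was 14, against 4577 of all 12808 tested genes. It was 9 on the TPM scale, against 3497 of all genes, and there the median of all genes moved to 0.19. With a mean of at least 5 FPKM, 29 of the 38 genes were tested and 8 were called lower, against 3595 of 9764 genes. The lower calls lost with that filter were AXIN2, FZD3, LGR5, TCF7, WNT1 and WNT4, which all lay under it and were not tested. The log2 fold change of DVL3 changed sign, to 0.0503 with library totals, 0.17 on the TPM scale, 0.13 with quantile normalization, 0.0367 with the filter at 5 FPKM, 0.0549 in limma on log2(FPKM + 1) and 0.0558 on log2(FPKM + 0.1), and ran from -0.0489 to 0.0318 with each library left out. That of CTNNB1 was 0.00515 on the TPM scale; the cause was not tested. With each library left out, 14 to 16 of the 38 genes were called higher and 12 to 14 lower, and over all genes 4324 to 4598 were called higher and 4259 to 4539 lower. With replicate number as a block, 15 genes were called higher and 14 lower, and all 29 calls were as without it. The deviations of libraries that share a number correlated at -0.0351, 0.104 and -0.155, and those of libraries with different numbers at -0.15 to 0.184. With 3 libraries per group, these values cannot tell if the numbers pair the samples. Of the 56 genes, those under the filter had at most 115 counts over the 6 libraries. An alternative chosen after seeing the data, the listed gene lengths in place of those behind the FPKM, moved the shares of SFRP2 and TCF7L2 in both groups, and that of FRZB in myoblasts (to 78.7%), by more than their spread.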
